A study of Mus musculus with 12 samples.

Results

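The clipped right ventricle at 6 weeks was represented by 2 arrays and was compared with 2 arrays of sham-operated right ventricle, 4 of the 12 arrays in the study. The arrays were chosen by their titles, which name the operation, the chamber and the week. Total RNA was hybridised to Affymetrix whole-transcript arrays, and the study's other arrays held right ventricle at 1 and 3 weeks after clipping and left ventricle of sham mice and of mice with a clip around the aorta (TAC), with 2 arrays in each of the 6 groups. The clipped mice were male C57BL/6 mice aged 18 weeks, 6 weeks after a haemoclip had been closed around the pulmonary artery (pulmonary artery clipping, PAC). The sham mice were male C57BL/6 mice aged 15 weeks, 3 weeks after their operation. No 6 week sham array was analysed here, so clipping cannot be told apart from 3 more weeks of age and of time since the operation. Hearts were perfused and cut into left ventricle, septum and right ventricle, so each array measured bulk tissue. Fewer cells of a type and less RNA per cell cannot be told apart in such tissue. The labels do not say whether the 2 arrays of a group came from separate animals, and p-values therefore measure the spread between these arrays, which may be technical.

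The right ventricle pumps blood into the low-pressure circulation of the lungs and has a thin wall. Narrowing the pulmonary artery raises the pressure that it must work against. Heart muscle under such load is known to enlarge its fibres, to switch part of its contractile proteins to isoforms used before birth, to release natriuretic peptides and to shift its fuel use away from fatty acids. Fibroblasts between the fibres are known to deposit collagen and other matrix under the control of transforming growth factor beta. Right ventricular failure is known as the main cause of death in pulmonary hypertension.

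Values were log2 expression levels, in which a difference of 1 is a 2-fold difference. Array medians ran from 6.32 to 6.4, and the median of the 12146 probe sets without a listed gene, taken here as the background level, was 5.72 (5.65 to 5.79 by array). The cardiomyocyte genes Myh6, Myl2, Myl3, Tnnt2, Tnni3 and Actc1 lay between 12.64 and 14.21 on the 4 arrays, near the top of the range. Hand1, a transcription factor gene of the left ventricle in the embryo, lay between 6.68 and 6.85 on these arrays and at 6.69 and 6.83 on the sham left ventricle arrays, so its level did not separate the chambers here. Both PAC arrays correlated with each other at 0.992 over all probe sets and both sham arrays at 0.991. PAC array 1 correlated with the sham arrays at 0.988 and 0.988, and PAC array 2 at 0.981 and 0.980, so that array 2 lay farther from sham. Array 2 did so in the other clipped groups too. At 1 week array 1 correlated with sham at 0.986 and 0.984 and array 2 at 0.978 and 0.976. At 3 weeks these were 0.988 and 0.987 for array 1 and 0.982 and 0.981 for array 2. The SD of all probe sets was 2.18 on both sham arrays, 2.21 on PAC array 1 and 2.23 on PAC array 2. A change is given below as the difference of the group means on the log2 scale ± the standard error of the limma fit, with n = 2 arrays per group, and genes were counted as passing below an adjusted p of 0.05 (Benjamini-Hochberg over 19938 genes). No exact size is read from a change to or from a level at or below background, and most such genes are given by their levels alone. The verbs rose and fell are kept for genes that passed. Genes are named by a rule given with the processing. Ankrd23, Nrap, Enah, Rcan1, Fhl1, Fhl2, Csrp3, Scx, Ltbp2, Vcan, Sparc, Fbln2, Tgfb1, Bmpr1a, Fap, Dpep1, Chrm2, Atp2a2, Bmp10, Myl7, Nr1d2, Arntl, Cry1, Clock, Per1, Per2, Per3, Kctd12b and Kif5b fall outside it and were chosen after their values were seen.

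At 6 weeks of clipping 1844 of 19938 genes passed against sham (9.25%), 1101 higher (5.52%) and 743 lower (3.73%). Of these, 117 differed at least 2-fold, 97 higher and 20 lower, and the larger changes were thus mostly increases. On all 1844 genes both PAC arrays lay on the same side of both sham arrays. Passing itself favours such genes and the share over all genes was not counted, so this is no separate support. An exact permutation test on a single gene, with 2 arrays on each side, has 0.33 as its smallest two-sided p, so each p-value rests on the spread shared across genes and groups. The count depended on single arrays. Without PAC array 2 it was 3, without PAC array 1 it was 1840 (1258 of them among the 1844), without sham array 1 it was 527 and without sham array 2 it was 99. Leaving out an array of another group moved it through the shared spread, to 1019 without either TAC array, 1223 without either sham left ventricle array and 2656 without either PAC 1 week array. The 3 genes that passed without PAC array 2 were Dbp, Kctd12b and Kif5b. In 83.95% of the 1844 genes array 2 lay farther from the sham mean than array 1 did, against 69.19% of all genes, and the median absolute change of the 1844 was 0.43 on array 1 and 0.55 on array 2. Array 2 was thus the farther array for most genes, in both directions. The median change of all genes was -0.05, and -0.03 without PAC array 2. At an unadjusted p under 0.05, 2823 of the 19938 genes were higher and 3214 lower, the base for such counts in the lists below. The 9.25% takes in genes at background, since 13878 of the 19938 lay above it in sham. Lists of well expressed genes are thus set against a mixed base.

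**Figure D1:**
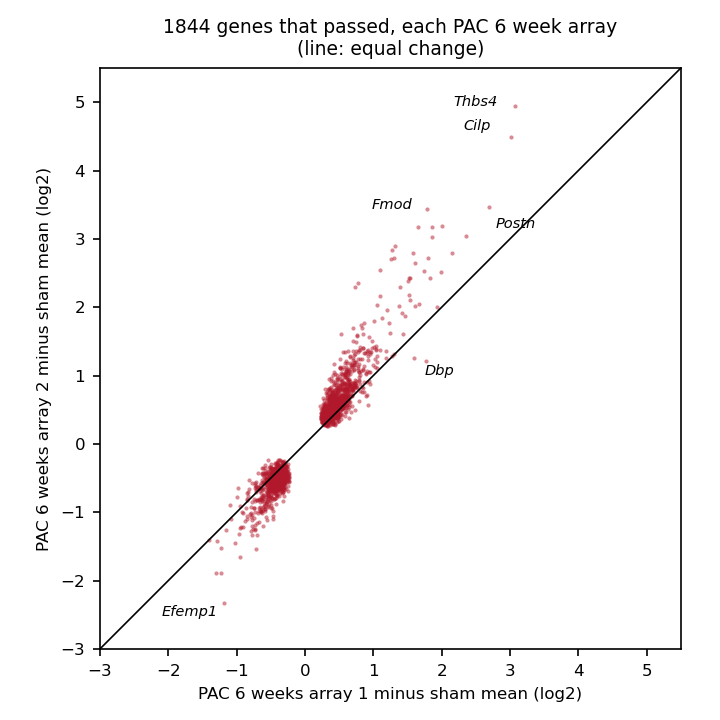
Each point is 1 of the 1844 genes that passed; the horizontal axis gives the log2 difference of PAC 6 week array 1 from the mean of the 2 sham arrays, the vertical axis that of array 2, and the line marks equal change. All points lie in the 2 quadrants where both arrays share a direction, and 83.95% lie farther from 0 on array 2 than on array 1.

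Genes that heart muscle makes under load stood high. Of 25 measured genes on the load list 12 rose and 0 fell, with a median change of 0.84 and 1 gene lower at an unadjusted p under 0.05. The share that passed was 48%, against 9.25% of all genes. The lists were chosen with earlier results of these data known, so the shares that passed, here and below, are no separate support. Nppa, which encodes atrial natriuretic peptide, stood at 10.98 and 10.68 on the sham arrays and at 12.99 and 13.63 on the PAC arrays. It rose by 2.47 ± 0.38 (5.55-fold, adjusted p = 0.0102). Nppb, the gene of brain natriuretic peptide, stood at 9.14 and 10.13 in sham and 11.46 and 12.06 in PAC, and rose by 2.12 ± 0.42 (adjusted p = 0.0191). The lower PAC array exceeded the higher sham array in both peptide genes, by more in Nppa. Myh7, the slow myosin heavy chain of the fetal ventricle, stood at 9.45 and 10.06 in sham and 12.12 and 12.80 in PAC, the largest increase on this list (6.51-fold, adjusted p = 0.0103). Acta1, skeletal alpha-actin, stood at 9.91 and 10.90 in sham and 12.40 and 12.92 in PAC (4.78-fold, adjusted p = 0.00753). The 2 sham arrays differed in Acta1 and Nppb by about 1, more than the 2 PAC arrays did. The stretch-responsive nuclear protein gene Ankrd1, already at 12.01 and 12.59 in sham, reached 13.34 and 13.69 and rose by 1.21 ± 0.22 (adjusted p = 0.0152). Its relative Ankrd23 rose by 1.21 ± 0.19. The intercalated disc genes Xirp2 (1.43 ± 0.26) and Nrap (0.82 ± 0.11) rose, as did Enah, an actin filament elongation factor (0.93 ± 0.22), and Rcan1, a calcineurin inhibitor that calcineurin itself induces (1.19 ± 0.29). Ccn2, connective tissue growth factor, which is counted on the matricellular list too, rose by 1.98 ± 0.49, and Uchl1, a ubiquitin hydrolase, by 0.84 ± 0.23. The LIM protein gene Fhl1 stood at 9.40 and 9.56 in sham and 10.39 and 10.91 in PAC and did not pass (adjusted p = 0.114), nor did Fhl2 (0.09 ± 0.08) or Csrp3 (0.07 ± 0.09). The list median was 0.69 on PAC array 1 and 1.13 on array 2. The mean level of 18 atrial muscle markers, Nppa among them, was 7.78 and 7.53 in sham and 8.15 and 8.38 in PAC, and the part of atrial RNA in the value of Nppa was not tested. Of the 12 genes 12 passed without PAC array 1, 0 without PAC array 2, 4 without sham array 1 and 4 without sham array 2.

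**Figure D2:**
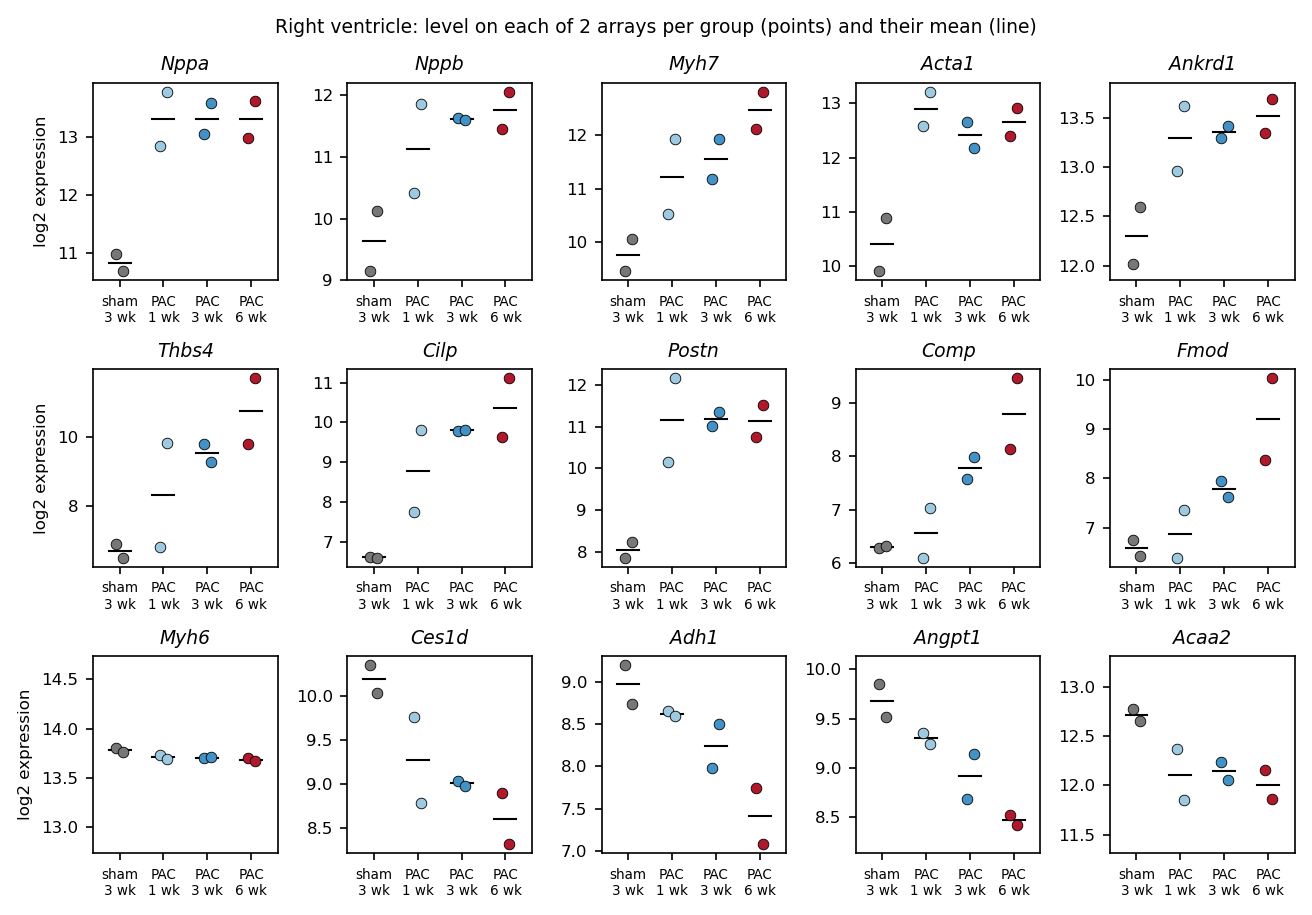
Log2 expression (vertical axes, each with its own range) of 15 genes on the 2 arrays (points) of sham, PAC 1 week, PAC 3 weeks and PAC 6 weeks, with the group mean as a line. The load and matrix genes of the upper rows lie above both sham arrays on both PAC 6 week arrays, Myh6 lies between 13.67 and 13.80 throughout, and Ces1d, Adh1, Angpt1 and Acaa2 lie below sham at 6 weeks.

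The stretch before the start of Acta1 and of Nppb is shown because both genes rose and both are textbook reporters of load. The serum response factor binds the CArG box and TEAD factors bind the MCAT element, and both elements are known in promoters of muscle genes. The sequences are the 250 bases before the RefSeq start in GRCm38.p6, 5′ to 3′ on the gene's strand, with matches in capitals. The CArG box was searched by its standard pattern and the MCAT element as CATTCC, each on both strands.
Acta1 (chr8:123894776-123895025, minus strand): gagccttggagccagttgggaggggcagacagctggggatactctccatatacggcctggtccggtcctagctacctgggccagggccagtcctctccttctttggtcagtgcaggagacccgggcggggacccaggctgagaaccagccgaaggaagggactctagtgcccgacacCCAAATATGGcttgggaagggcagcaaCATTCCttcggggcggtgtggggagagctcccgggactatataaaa
Nppb (chr4:147985650-147985899, plus strand): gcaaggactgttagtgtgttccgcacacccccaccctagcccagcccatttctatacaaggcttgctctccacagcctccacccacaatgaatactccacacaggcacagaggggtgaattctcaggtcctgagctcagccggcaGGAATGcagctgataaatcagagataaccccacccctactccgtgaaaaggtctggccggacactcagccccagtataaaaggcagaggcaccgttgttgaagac
In Acta1 the CArG match began 73 bases and the MCAT match 46 bases before the start. In Nppb the MCAT match lay on the opposite strand and began 105 bases before the start. A CArG box was found in 1.47% and an MCAT element in 12.6% of all 32851 RefSeq windows of this length. Of the 25 measured load genes 23 had a window, of which 3 (Acta1, Fhl1 and Fhl2) held a CArG box and 5 an MCAT element. Among the 12 that rose, 11 had a window, of which 1 (Acta1) held a CArG box and 4 (Nppb, Myh7, Acta1 and Ankrd1) an MCAT element. A match describes letters in this window and no binding was measured.

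Most members of the sarcomere list changed little, but this list leaves out Myh7 and Acta1. Those contractile genes were placed on the load list and rose by 2.70 and 2.26. Of 23 sarcomere genes 2 rose and 0 fell, with a median of 0.03, near that of all genes (-0.05), and the share that passed (8.7%) lay near that of all genes. Mybpc3, cardiac myosin binding protein C, stood at 12.77 and 12.82 in sham and 13.22 and 13.27 in PAC and rose by 0.45 ± 0.08 (adjusted p = 0.0145). Tcap, the titin cap, rose by 0.41 ± 0.10. Cardiac troponin I, Tnni3, stood at 13.01 and 13.03 in sham and 12.78 and 12.64 in PAC and did not pass (adjusted p = 0.0562). The adult myosin gene Myh6 stood at 13.80 and 13.77 in sham and 13.70 and 13.67 in PAC (change -0.10 ± 0.07, adjusted p = 0.39). Levels this near the highest value on the arrays (14.78) may not scale with the amount of RNA, which was not tested. Of the 2 sarcomere genes that rose 1, 0, 0 and 0 passed without PAC array 1, PAC array 2, sham array 1 and sham array 2.

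The 3 largest increases among genes that passed were in the matrix genes Thbs4, Cilp and Postn. Thbs4, thrombospondin 4, stood at 6.93 and 6.52 on the sham arrays and at 9.80 and 11.67 on the PAC arrays. It rose by 4.01 ± 0.80 (16.1-fold, adjusted p = 0.0198). Its 2 PAC arrays differed by 1.87, so the size of the change is uncertain, although both lay far above sham. Cilp, a cartilage matrix protein that heart fibroblasts also secrete, stood at 6.62 and 6.60 in sham and 9.62 and 11.10 in PAC (13.5-fold, adjusted p = 0.0101). Postn, periostin, a product of activated fibroblasts, stood at 7.87 and 8.25 in sham and 10.75 and 11.52 in PAC (8.44-fold, adjusted p = 0.0117). Comp, cartilage oligomeric matrix protein and a relative of Thbs4, stood at 6.27 and 6.31 in sham and 8.14 and 9.46 in PAC (5.71-fold, adjusted p = 0.0103). Fmod, the collagen-binding proteoglycan fibromodulin of tendon, stood at 6.76 and 6.42 in sham and 8.37 and 10.03 in PAC (6.1-fold, adjusted p = 0.0125). In each of these 5 genes PAC array 2 was the higher. Tnmd, tenomodulin, a membrane protein of tendon cells, was below background in sham (5.01 and 5.08) and stood at 6.33 and 7.88 in PAC (adjusted p = 0.017). Scx, the transcription factor that marks tendon cells, stood at 7.20 and 7.16 in sham and 7.84 and 8.07 in PAC, and rose by 0.77 ± 0.10 (adjusted p = 0.00708). Fibin, a secreted protein first described in fin development, stood at background in sham (5.77 and 5.74) and at 7.76 and 8.95 in PAC (adjusted p = 0.00708). Of the 15 largest increases 15 passed without PAC array 1, 0 without PAC array 2 (adjusted p from 0.0683 to 0.267), 8 without sham array 1 and 1 without sham array 2.

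Over the whole matricellular and elastic fibre list 13 of 30 genes rose and 0 fell, with a median of 0.76 and 1 gene lower at an unadjusted p under 0.05. Beside those named, Thbs1, an activator of latent transforming growth factor beta, rose by 2.44 ± 0.59, Mfap5, a microfibril protein, by 1.95 ± 0.45, the latent growth factor binding protein Ltbp2 by 1.82 ± 0.51 and the proteoglycan versican, Vcan, by 1.82 ± 0.34. Sparc (0.84 ± 0.20) and Fbln2 (0.93 ± 0.24) rose less. Of 12 genes on the small leucine-rich proteoglycan list, which also holds Prg4 from outside that family, 6 rose, with a median of 0.81. The shares that passed were 43.3% and 50%, against 9.25% of all genes. Aspn, asporin, stood at 8.76 and 8.23 in sham and 10.23 and 11.03 in PAC and rose by 2.14 ± 0.29 (adjusted p = 0.00744). Bgn, biglycan, rose by 1.48 ± 0.30, Prg4, the joint lubricant, by 1.82 ± 0.43 and Lum, lumican, by 1.07 ± 0.21. Omd passed as well, but all its levels lay below background. Without PAC array 2 the medians of these lists were 0.50 and 0.45, and without array 1 they were 0.96 and 1.15. Of the 13 matricellular genes 12, 0, 2 and 0 passed without PAC array 1, PAC array 2, sham array 1 and sham array 2, and of the 6 proteoglycan genes 6, 0, 2 and 0.

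Some collagens rose while Col1a1 and Col3a1 did not pass. Of 30 collagen and assembly genes 8 rose and 0 fell, with a median of 0.62. At an unadjusted p under 0.05, 18 were higher and 0 lower, against 2823 and 3214 of all 19938 genes. The share that passed was 26.7%, against 9.25% of all genes. Col12a1, which sits on the surface of collagen fibrils, was below background in sham (5.58 and 5.53) and stood at 7.21 and 8.73 in PAC (adjusted p = 0.0322). The short-chain collagen Col8a1 stood at 6.87 and 6.99 in sham and 8.73 and 9.65 in PAC and rose by 2.26 ± 0.46 (adjusted p = 0.0204). Col14a1, another fibril-surface collagen, stood at 7.59 and 7.59 in sham and 8.97 and 9.60 in PAC and rose by 1.69 ± 0.38. The crosslinking enzymes Loxl3 (1.10 ± 0.27) and Loxl1 (0.97 ± 0.26) and the collagen prolyl hydroxylase P3h2 (1.20 ± 0.28) rose too. Col1a1, the main fibrillar collagen of scar, stood at 9.38 and 9.63 in sham and 10.35 and 11.13 in PAC, without overlap, and did not pass (change 1.23 ± 0.38, adjusted p = 0.0641). Col3a1 stood at 9.49 and 9.53 in sham and 10.29 and 10.82 in PAC and did not pass either (change 1.05 ± 0.31, adjusted p = 0.0574). On the PAC 1 week arrays Col1a1 had stood at 11.08 and 12.40 and Col3a1 at 11.10 and 12.15, and on the PAC 3 week arrays at 10.96 and 11.05 and at 10.91 and 11.16. The difference between 6 weeks and 1 week did not pass in either (adjusted p = 0.417 and 0.243). The list median was 0.41 on PAC array 1 and 0.84 on array 2, and of the 8 genes that rose 8 passed without PAC array 1 and 0 without PAC array 2 or without either sham array.

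Of 18 basement membrane genes, which wrap muscle fibres and vessels, 5 rose and 0 fell (median 0.27). Col4a2 stood at 8.85 and 9.04 in sham and 9.59 and 10.02 in PAC (change 0.86 ± 0.16, adjusted p = 0.0162) and its partner Col4a1 rose by 0.74 ± 0.17. Nid2 (0.59 ± 0.13), Col4a5 (0.43 ± 0.11) and the laminin chain Lama4 (0.40 ± 0.09) were the others. Of 24 matrix proteases and inhibitors 3 rose, namely the gelatinase Mmp2 (1.17 ± 0.24), Adamts9 (0.70 ± 0.09) and Adamtsl2 (1.27 ± 0.27). The inhibitor Timp4, which the heart makes in quantity, stood at 8.35 and 8.02 in sham and 7.42 and 6.85 in PAC and fell by 1.05 ± 0.21 (adjusted p = 0.0202). In the integrin and adhesion list 3 of 36 rose and 1 fell. Itgbl1, a secreted integrin-like protein, stood at 7.14 and 7.05 in sham and 8.68 and 9.89 in PAC (4.55-fold, adjusted p = 0.00999). The laminin receptor chain Itga6 rose by 0.77 ± 0.09 and Itga9 by 0.81 ± 0.18, while Itgb6, a chain of an integrin that activates latent transforming growth factor beta, fell from 9.26 and 9.29 to 8.44 and 8.52 (adjusted p = 0.00533). The shares that passed were 27.8% of the basement membrane, 16.7% of the protease and 11.1% of the integrin list, against 9.25% of all genes, and the last is near that level. Of the 5 basement membrane genes 5 passed without PAC array 1 and 0 without PAC array 2 or without either sham array. The median of that list was 0.18 on PAC array 1 and 0.35 on array 2. Of the 4 protease list genes 4, 0, 1 and 1 passed without PAC array 1, PAC array 2, sham array 1 and sham array 2, and of the 4 integrin list genes 4, 0, 3 and 2.

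**Figure D3:**
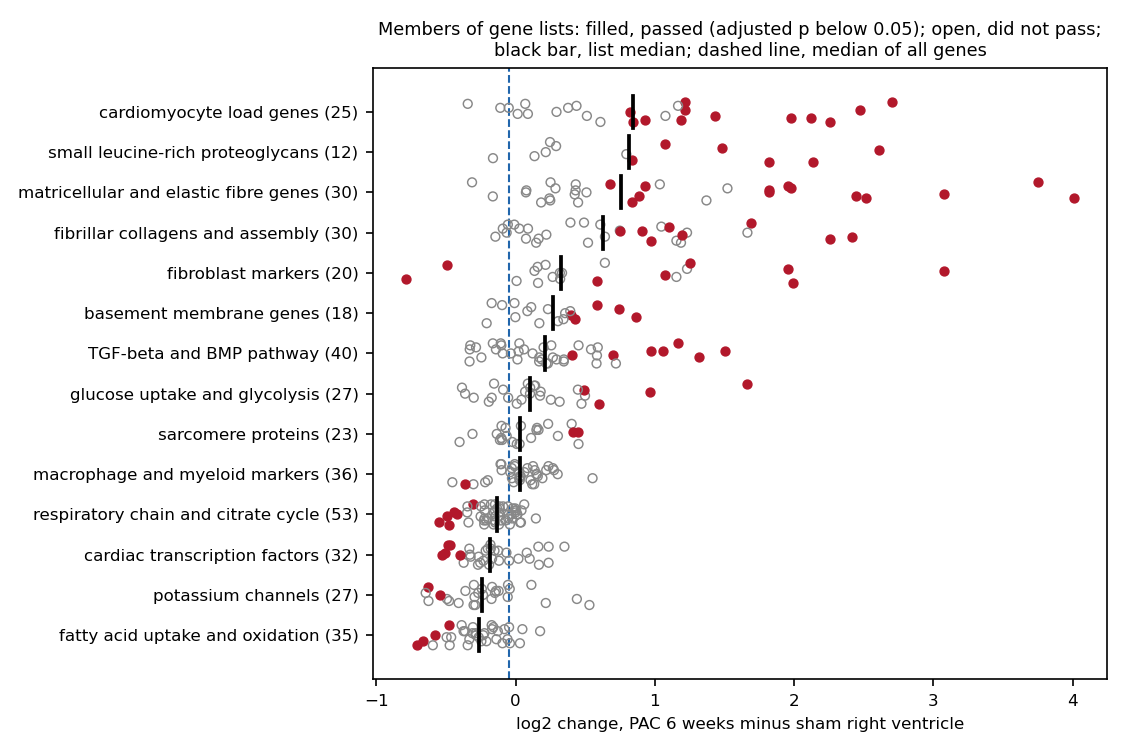
Each point is a measured gene of the named list, placed by its log2 change between PAC 6 weeks and sham (horizontal axis); filled points passed, open points did not, the black bar is the list median and the dashed line the median of all genes (-0.05). List names carry the number of measured genes. The load and matrix lists have medians between 0.62 and 0.84, and the fatty acid list has -0.27.

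Some ligands and receptors of the transforming growth factor beta pathway rose. Of 40 genes of this and the bone morphogenetic protein pathway 7 rose and 0 fell, with a median of 0.21 and 3 lower at an unadjusted p under 0.05. The share that passed was 17.5%, against 9.25% of all genes. Among the ligands, Tgfb2 stood at 6.47 and 6.72 in sham and 7.45 and 8.36 in PAC (change 1.32 ± 0.33, adjusted p = 0.0358) and Tgfb3 at 7.90 and 7.88 in sham and 8.65 and 9.46 in PAC (change 1.17 ± 0.29, adjusted p = 0.037). Tgfb1 did not pass (0.54 ± 0.16, adjusted p = 0.0619). Of the receptors Tgfbr1 rose by 0.97 ± 0.17 and Bmpr1a by 0.40 ± 0.09. The feedback inhibitor Skil rose by 1.06 ± 0.23, the target Id3 by 0.70 ± 0.12 and the secreted follistatin-like protein Fstl1 by 1.5 ± 0.30. In the Wnt list 3 of 33 genes rose and 3 fell, 18.2% against 9.25% of all genes. The secreted antagonist Frzb stood at 6.04 and 6.03 in sham and 7.65 and 8.69 in PAC and rose by 2.13 ± 0.43, and Dkk3 rose by 1.85 ± 0.50. The antagonists Sfrp5 (-0.57 ± 0.14) and Wif1 (-0.49 ± 0.13) and the ligand Wnt4 (-0.41 ± 0.10) fell, Sfrp5 to below background. Of 20 fibroblast markers 6 rose and 2 fell (median 0.33), 40% against 9.25% of all genes. Beside Postn, Mfap5 and Lum, which stand on the matrix lists too, the transcription factor gene Meox1 stood at 7.05 and 7.21 in sham and 8.67 and 9.56 in PAC and rose by 1.99 ± 0.36 (adjusted p = 0.0151). Pi16 rose by 1.25 ± 0.21, and Fap rose from background (5.67 and 5.71) to 6.09 and 6.45. Scara5 (-0.78 ± 0.20) and Dpep1 (-0.49 ± 0.13) fell. The mean level of the fibroblast list was 8.54 and 8.53 on the sham arrays and 9.04 and 9.39 on the PAC arrays, and its part in the matrix results was not tested. The median of the transforming growth factor list was 0.10 on PAC array 1 and 0.30 on array 2. Of its 7 genes 7 passed without PAC array 1, 2 without sham array 1 and 0 without sham array 2 or PAC array 2. Of the 8 fibroblast genes 7 passed without PAC array 1 and 0 without PAC array 2 or either sham array, and of the 6 Wnt genes 4, 0, 1 and 0 passed without PAC array 1, PAC array 2, sham array 1 and sham array 2.

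Some genes of fatty acid use fell and a few of glucose use rose. Of 35 fatty acid genes 4 fell and 0 rose, with a median of -0.27. At an unadjusted p under 0.05, 15 were lower and 0 higher, against 3214 and 2823 of all 19938 genes. Acaa2, the last enzyme of the mitochondrial beta-oxidation cycle, stood at 12.77 and 12.66 in sham and 12.15 and 11.86 in PAC and fell by 0.71 ± 0.16 (adjusted p = 0.0284). The lipid droplet protein gene Plin5 fell by 0.67 ± 0.18, the electron carrier subunit Etfb by 0.58 ± 0.12 and malonyl-CoA decarboxylase, Mlycd, by 0.48 ± 0.13. Cpt2, which loads fatty acids into the oxidation pathway inside mitochondria, stood at 10.59 and 10.52 in sham and 10.14 and 10.04 in PAC and did not pass (adjusted p = 0.0696). Among 53 genes of the respiratory chain and citrate cycle 6 fell and 0 rose (median -0.13). These were a subunit of each of several complexes, Ndufb8 (-0.49 ± 0.11), Sdhc (-0.48 ± 0.09), Uqcrq (-0.55 ± 0.11), Cox4i1 (-0.42 ± 0.09), Cox8b (-0.44 ± 0.10) and Atp5d (-0.31 ± 0.08). Uqcrq stood at 11 and 10.97 in sham and 10.49 and 10.38 in PAC, with both PAC arrays close together. The respiratory median was -0.07 on PAC array 1 and -0.19 on array 2, and it was -0.07 without sham array 1. The shares of the fatty acid and respiratory lists that passed were 11.4% and 11.3%, near the 9.25% of all genes. The members that passed were all lower, and 3.73% of all genes passed as lower.

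Of 27 glucose genes 4 rose and 0 fell (median 0.10, and 0.17 without sham array 1), with 3 lower at an unadjusted p under 0.05. The share that passed was 14.8%, against 9.25% of all genes. All 27 lay above background in sham, but 13878 of the 19938 genes did, so these shares are not on an equal footing. Pfkp, the platelet isoform of phosphofructokinase, stood at 9.01 and 8.78 in sham and 10.35 and 10.76 in PAC (3.16-fold, adjusted p = 0.00744). Ugp2, which makes the sugar nucleotide for glycogen and proteoglycans, stood at 9.51 and 9.42 in sham and 10.32 and 10.54 in PAC and rose by 0.97 ± 0.10 (adjusted p = 0.00441). The glucose transporter Slc2a1, known as the fetal and basal form, rose by 0.60 ± 0.16 and the liver phosphofructokinase Pfkl by 0.49 ± 0.09. Pdk2, an inhibitor of pyruvate oxidation, stood at 11.51 and 11.51 in sham and 11.15 and 11.10 in PAC and did not pass (adjusted p = 0.0661). In amino acid metabolism the branched-chain enzymes Bcat2 (-0.69 ± 0.09) and Bckdhb (-0.90 ± 0.15) fell. Bdh1, which uses ketone bodies, stood at 9.36 and 9.67 in sham and 9.93 and 10.44 in PAC and rose by 0.67 ± 0.16, glutamine synthetase, Glul, rose by 0.56 ± 0.15 and the creatine transporter Slc6a8 by 0.37 ± 0.09. Without PAC array 2 none of the metabolic genes named here passed, with adjusted p of 0.0611 for Ugp2, 0.0903 for Pfkp, 0.0891 for Bcat2 and 0.24 for Acaa2. Of the 4 fatty acid genes 2 passed without PAC array 1 and 0 without either sham array. Of the 6 respiratory genes 5, 1 and 0 passed without PAC array 1, sham array 1 and sham array 2, of the 4 glucose genes 3, 3 and 1, and of the 5 amino acid genes 4, 1 and 1.

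A few ion channel and transcription factor genes passed. Of 27 potassium channel genes 2 fell and 0 rose, and 4 had a change above 0 (median -0.24). At an unadjusted p under 0.05, 13 were lower and 1 higher. The share that passed was 7.41%, against 9.25% of all genes in either direction and 3.73% lower. The genes that fell were Kcnj3 (9.06 and 8.84 in sham, 8.38 and 8.27 in PAC) and Kcnj5 (8.89 and 8.71 in sham, 8.23 and 8.29 in PAC), which together form the channel opened by acetylcholine. Their partner in that response, the muscarinic receptor Chrm2, fell too (-0.42 ± 0.08). Kcnd2, a subunit of the transient outward current, stood at 9.57 and 9.33 in sham and 8.99 and 8.65 in PAC and did not pass (adjusted p = 0.0595). In the calcium and conduction list 3 of 32 genes rose, the calcium pump Atp2b1 (0.37 ± 0.09), the junction protein Asph (0.31 ± 0.08) and the connexin gene Gjc1 (0.54 ± 0.14), and the pacemaker channel Hcn4 fell (-0.40 ± 0.09). Atp2a2, the calcium pump of the sarcoplasmic reticulum, stood at 13.94 and 13.93 in sham and 13.83 and 13.81 in PAC and did not pass (adjusted p = 0.336). Of 32 cardiac transcription factor genes 5 fell and 0 rose (median -0.19), with 2 higher at an unadjusted p under 0.05. The shares that passed were 12.5% of the calcium and 15.6% of the transcription factor list, against 9.25% of all genes. Tbx5, a factor of heart patterning and conduction, stood at 8.55 and 8.62 in sham and 8.04 and 8.06 in PAC and fell by 0.53 ± 0.11 (adjusted p = 0.0245). Klf15, which restrains hypertrophy, fell by 0.51 ± 0.14, Prdm16 by 0.47 ± 0.10, Mef2d by 0.40 ± 0.10 and Isl1 by 0.49 ± 0.13, the last from levels below background. The right-sided factor gene Hand2 (8.06 and 8.12 in sham, 7.92 and 7.79 in PAC, adjusted p = 0.118) and Hand1 (change -0.07 ± 0.11) did not pass. Of the 2 potassium channel genes 1, 0, 0 and 0 passed without PAC array 1, PAC array 2, sham array 1 and sham array 2, of the 4 calcium list genes 1, 0, 0 and 0, and of the 5 transcription factor genes 2, 0, 0 and 0.

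In the adrenergic and cyclic nucleotide list 6 of 29 genes rose and 3 fell, 31% against 9.25% of all genes. The median was 0.09, 0.15 without sham array 1 and 0.01 without sham array 2, 0.14 without PAC array 1, and 0.03 after loess scaling. Prkg1, the protein kinase that natriuretic peptides activate through cyclic GMP, stood at 7.95 and 7.73 in sham and 8.83 and 9.0 in PAC (2.11-fold, adjusted p = 0.00533). Grk5, a kinase that silences adrenergic receptors, rose by 0.87 ± 0.22, the G protein regulator Rgs4 by 0.90 ± 0.16 and the protein kinase A subunit Prkar1a by 0.51 ± 0.12. The receptor Adra1b (-0.48 ± 0.11) and the phosphodiesterase Pde3a (-0.49 ± 0.10) fell. In the renin-angiotensin and endothelin list 2 of 20 genes rose and 2 fell (20%). The endothelin receptor Ednrb stood at 7.99 and 7.78 in sham and 8.69 and 9.13 in PAC and rose by 1.03 ± 0.20, and endothelial nitric oxide synthase, Nos3, rose by 0.31 ± 0.08. Angiotensinogen, Agt, fell by 0.62 ± 0.10, and Hsd11b1, which makes active glucocorticoid, stood at 7.65 and 7.24 in sham and 6.37 and 6.34 in PAC and fell by 1.09 ± 0.14 (adjusted p = 0.00708). The receptor Agtr1a stood at 9.45 and 9.45 in sham and 9.11 and 8.82 in PAC and did not pass (adjusted p = 0.0596). Of the 9 adrenergic list genes 7, 0, 2 and 1 passed without PAC array 1, PAC array 2, sham array 1 and sham array 2, and of the 4 renin-angiotensin and endothelin genes 4, 0, 2 and 1.

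Stress-related genes were mixed. Of 25 oxidative stress genes 5 rose and 3 fell (median 0.21, and 0.11 without PAC array 2), 32% against 9.25% of all genes. Nox4, an enzyme that makes hydrogen peroxide, was below background in sham (5.31 and 5.5) and stood at 6.73 and 8.31 in PAC (adjusted p = 0.0173). The metallothionein Mt2 stood at 8.94 and 7.83 in sham and 10.32 and 10.39 in PAC and rose by 1.97 ± 0.48, and the quinone reductase Nqo1 rose by 0.59 ± 0.15. Superoxide dismutase Sod1 fell by 0.44 ± 0.08 and the glutathione transferases Gstm2 and Gsta3 by 0.60 ± 0.11 and 0.72 ± 0.14. Of 23 genes of protein breakdown and autophagy 3 rose (13%), namely the atrophy ligase Fbxo32 (9.60 and 9.54 in sham, 10.18 and 10.26 in PAC), Fbxo30 (0.58 ± 0.11) and the mitophagy receptor Bnip3 (0.74 ± 0.13). Of 25 genes of the unfolded protein response 0 passed by limma, and 10 had an unadjusted p under 0.05, against 6037 of all 19938 genes. Among 28 immediate early and heat shock genes Jun alone passed (0.57 ± 0.12). Of the 8 oxidative stress genes 5, 0, 1 and 0 passed without PAC array 1, PAC array 2, sham array 1 and sham array 2, and of the 3 protein breakdown genes 3, 0, 3 and 0. Jun passed without PAC array 1 but not without any of the other 3 arrays in turn.

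Few myeloid markers passed at 6 weeks. Of 36 markers of macrophages and other myeloid cells 0 rose and 1 fell (Timd4, -0.36 ± 0.09), with a median of 0.03 and 1 higher at an unadjusted p under 0.05. The median was 0.08 without PAC array 2, 0.01 without PAC array 1 and 0.06 without sham array 1. Their mean level was 7.5 and 7.45 on the sham arrays and 7.56 and 7.47 on the PAC arrays, and 33 of them lay above background in sham. Of 27 lymphocyte and antigen presentation genes 3 fell and 0 rose (median -0.21, and -0.08 after loess scaling). They were the T cell gene Cd3e (6.65 and 6.72 in sham, 6.24 and 6.18 in PAC), the class II activator Ciita, near background in PAC (5.82 and 5.77), and Nkg7, below it (5.30 and 5.20). At an unadjusted p under 0.05, 10 of the 27 were lower and 0 higher. The share that fell was 11.1%, against 3.73% of all genes, of which 9.25% passed in either direction. Among chemokines and cytokines the eosinophil attractant Ccl11 fell from 7.19 and 7.11 to 6.41 and 6.07 (adjusted p = 0.00708) and Il15 fell by 0.78 ± 0.16, whereas Il33 rose by 0.78 ± 0.21 and Cxcl12 by 0.50 ± 0.13. Of 33 endothelial markers 2 rose, the apelin receptor Aplnr (0.74 ± 0.19) and Nos3, and 1 fell, Angpt1, a ligand that steadies vessels and comes from muscle and mural cells (9.85 and 9.52 in sham, 8.53 and 8.42 in PAC, adjusted p = 0.0081). The endothelial median was 0.20, and 0.11 after loess scaling. The shares that passed were 2.78% for myeloid and 9.09% for endothelial markers, below and near the 9.25% of all genes. They were 14.3% for chemokines and cytokines and 20% for smooth muscle and pericyte markers. Of 20 smooth muscle and pericyte markers 4 rose, the pericyte genes Pdgfrb (0.47 ± 0.10), Vtn (0.48 ± 0.12), Higd1b (0.44 ± 0.12) and Rgs5 (0.30 ± 0.08). Timd4 passed without PAC array 1 but not without any of the other 3 arrays in turn. Of the 3 lymphocyte genes 2, 0, 0 and 0 passed without PAC array 1, PAC array 2, sham array 1 and sham array 2, of the 5 chemokine and cytokine genes 2, 0, 1 and 1, of the 3 endothelial genes 2, 0, 1 and 1, and of the 4 pericyte genes 1, 0, 0 and 0.

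Markers of tissue at the edges of the dissected piece differed between arrays. The epicardial and mesothelial list had a mean level of 6.95 and 6.54 on the sham arrays and 6.47 and 6.18 on the PAC arrays. Of its 16 genes 14 lay above background in sham, 2 fell and 0 rose (median -0.45, -0.26 on PAC array 1, -0.60 on array 2 and -0.22 without sham array 1). Lrrn4 stood at 6.85 and 6.27 in sham and 5.61 and 4.90 in PAC, below background on both PAC arrays, and Rspo1 fell by 0.57 ± 0.13. Upk1b stood at 7.60 and 6.33 on the sham arrays and at 6.27 and 5.49 on the PAC arrays, so that its sham arrays lay farther apart than its PAC arrays. The part of epicardial RNA in other results was not tested. In the atrial muscle list, whose mean level is given with Nppa above, 15 genes lay above background in sham, and of its 18 genes 3 rose and 2 fell. Those that rose were Nppa, Dkk3 and the peptide-processing enzyme Pam (0.83 ± 0.15). Bmp10, which atrial muscle makes, was below background on all 4 arrays (4.28 and 4.64 in sham, 4.79 and 4.52 in PAC). The atrial light chain Myl4 stood at 8.35 and 7.16 in sham and 9.48 and 10.20 in PAC and did not pass (adjusted p = 0.0699), and Myl7 stood at 8.13 and 5.93 in sham and 8.82 and 9.52 in PAC (adjusted p = 0.106). For both light chains sham array 2 was the lowest of the 4 arrays. The platelet chemokine Ppbp showed the widest gap between the PAC arrays of any gene named by the rule, at 7.27 and 9.53, against 6.98 and 6.25 in sham, and Pf4, the other platelet chemokine on the list, stood at 7.60 and 7.84. Skeletal muscle markers had 1 of 19 higher, the fast myosin binding protein Mybpc2 (6.77 and 6.97 in sham, 7.97 and 8.25 in PAC), and 3 lower. The fast myosin gene Myh4 lay below background on all 4 arrays. The shares that passed were 12.5% of the epicardial, 27.8% of the atrial and 21.1% of the skeletal muscle list, against 9.25% of all genes. Of the 2 epicardial genes 2, 0, 0 and 1 passed without PAC array 1, PAC array 2, sham array 1 and sham array 2, of the 5 atrial list genes 4, 0, 1 and 0, and of the 4 skeletal muscle genes 2, 0, 0 and 0.

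The largest decreases included several metabolic enzymes and secreted proteins. Efemp1, an elastic fibre protein, stood at 8.89 and 8.55 in sham and 7.53 and 6.4 in PAC (3.37-fold lower, adjusted p = 0.0159). Ces1d, a carboxylesterase that splits lipid esters, stood at 10.36 and 10.04 in sham and 8.89 and 8.31 in PAC (3.02-fold lower, adjusted p = 0.0145). Adh1, an alcohol and retinol dehydrogenase, stood at 9.20 and 8.74 in sham and 7.74 and 7.08 in PAC (2.95-fold lower, adjusted p = 0.00866). In these 3 genes PAC array 2 was the lower of the pair. The methyltransferase Inmt stood at 10.36 and 9.81 in sham and 8.68 and 8.68 in PAC, and the enkephalin precursor Penk at 8.75 and 8.54 in sham and 7.42 and 7.12 in PAC (adjusted p = 0.0102). Angpt1, Hsd11b1 and Timp4, described above, belong to the same 15 genes. The iron exporter Slc40a1 (-1.09 ± 0.19), the phosphorylase kinase subunit Phkg1 (-1.06 ± 0.14) and the acyl-CoA thioesterase Acot1 (-1.14 ± 0.29) fell as well. Lgi1 (-1.35 ± 0.34), Acsm5 (-1.23 ± 0.19), Drd2 (-1.12 ± 0.23) and Lrrn4 ended near or below background, so their changes are not read as exact folds. Of these 15 genes 12 passed without PAC array 1, 0 without PAC array 2 (adjusted p from 0.0881 to 0.327), 6 without sham array 1 and 4 without sham array 2.

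Genes of the daily clock differed at 6 weeks from sham and, in Dbp and Nr1d1, from the 3 week PAC arrays. In the clock, Arntl and Clock proteins switch on genes through the E-box, the products of some of these genes (Nr1d1, Nr1d2, Cry1 and others) repress the drivers, and the cycle repeats each day. Of 20 clock genes 6 rose and 3 fell against sham (median 0.21, and 0.13 without sham array 2), 45% of the list against 9.25% of all genes. Dbp, a clock output factor, stood at 7.93 and 8.14 in sham and 9.63 and 9.28 in PAC at 6 weeks, and at 8.17 and 7.85 in PAC at 3 weeks. It rose by 1.43 ± 0.16 against sham (adjusted p = 0.00505) and was higher than at 3 weeks by 1.44 ± 0.16 (adjusted p = 0.0167). Nr1d1, the repressor REV-ERB alpha, stood at 9.70 and 10.01 in sham, 10.79 and 10.91 at 6 weeks and 9.75 and 9.48 at 3 weeks. It rose by 0.99 ± 0.14 against sham (adjusted p = 0.00744) and exceeded its 3 week level by 1.23 ± 0.14 (adjusted p = 0.0167). At 1 week Dbp had stood at 9.48 and 9.17 and Nr1d1 at 10.76 and 10.60, close to their 6 week levels, and the difference between 6 weeks and 1 week did not pass in either (adjusted p = 0.86 and 0.775). Bhlhe40 (7.42 and 8.03 in sham, 9.16 and 9.34 at 6 weeks) rose by 1.53 ± 0.25, Bhlhe41 by 0.76 ± 0.13, Nr1d2 by 0.62 ± 0.13 and Ciart, a repressor of the clock, by 0.80 ± 0.12. The driver Arntl stood at 8.66 and 8.55 in sham and 7.89 and 7.99 at 6 weeks and fell by 0.66 ± 0.10 (adjusted p = 0.00802). It stood at 8.62 and 8.70 at 3 weeks (adjusted p = 0.0575 for the difference between 6 and 3 weeks, not passing). Nfil3 fell from 8.25 and 7.83 to 7.09 and 7.13 (adjusted p = 0.00753). Cry1, named above with the repressors Nr1d1 and Nr1d2, fell by 0.39 ± 0.08 while those rose. Clock itself did not pass (0.12 ± 0.09), nor did Per1 (0.19 ± 0.39), Per2 (0.19 ± 0.08) or Per3 (0.23 ± 0.16). The labels give no time of day at which hearts were taken, and its part in these values was not tested. Of the 9 genes 7 passed without PAC array 1, 1 (Dbp, adjusted p = 0.04) without PAC array 2, 5 without sham array 1 and 5 without sham array 2.

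**Figure D4:**
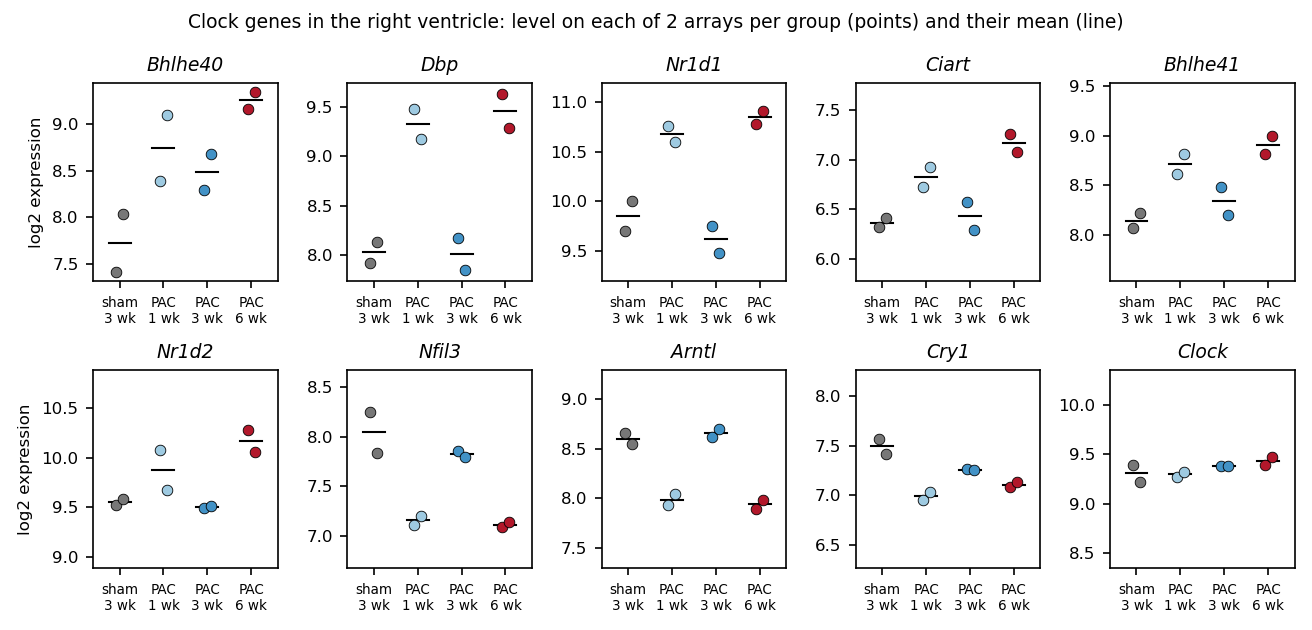
Log2 expression (vertical axes, each with its own range) of 10 clock genes on the 2 arrays (points) of each right ventricle group, with the group mean as a line. Dbp and Nr1d1 lie high on the PAC 1 and 6 week arrays and low on the sham and PAC 3 week arrays, Arntl and Nfil3 the other way round, and Clock lies between 9.22 and 9.47 on all 8.

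The stretch before the start of Ciart is shown because it holds 3 copies of the E-box CACGTG, a palindrome that reads the same on both strands. It is given as for Acta1, from RefSeq in GRCm38.p6 with matches in capitals.
Ciart (chr3:95882229-95882478, minus strand): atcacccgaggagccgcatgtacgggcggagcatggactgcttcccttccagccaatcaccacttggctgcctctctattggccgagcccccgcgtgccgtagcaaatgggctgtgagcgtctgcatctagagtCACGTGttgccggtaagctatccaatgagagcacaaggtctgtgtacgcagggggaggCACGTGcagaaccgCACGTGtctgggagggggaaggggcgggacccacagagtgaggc
The copies began 116, 58 and 44 bases before the start. An E-box of these letters was found in 6.02% of all 32851 windows. Of the 20 measured clock genes 17 had a window and 5 of these held an E-box, among them Ciart and Bhlhe41, which rose, and Cry1, which fell. Dbp and Nr1d1 held none in this window, which says nothing of sites elsewhere.

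Against the earlier times of clipping few genes passed. These differences are between clipped arrays, but the spread behind their p-values was estimated over all 12 arrays, sham included. Between 6 and 3 weeks 4 of 19938 genes passed (0.0201%), Dbp and Nr1d1 higher at 6 weeks and Fam124b and the cDNA clone gene 4631405J19Rik lower. Fam124b, whose role is not well known, stood at 6.97 and 7.03 at 3 weeks and 6.02 and 6.07 at 6 weeks (change -0.95 ± 0.10, adjusted p = 0.0167). The tendon proteoglycan Fmod, at 7.94 and 7.63 on the 3 week arrays and 8.37 and 10.03 on the 6 week arrays, did not pass (adjusted p = 0.968), nor did Comp (7.57 and 8.0 at 3 weeks, adjusted p = 1). Nmrk2, a kinase of NAD synthesis that stressed muscle induces, stood at 7.28 and 7.12 at 3 weeks and 8.23 and 8.65 at 6 weeks and did not pass (adjusted p = 0.956). Ddit4, an inhibitor of growth signalling, stood at 8.44 and 8.86 and 7.53 and 7.83 (adjusted p = 0.391, not passing). The count was 0 without either 6 week array, 11 without PAC 3 week array 1 and 0 without PAC 3 week array 2.

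Between 6 weeks and 1 week 19 genes passed (0.0953%), 7 higher and 12 lower at 6 weeks. Top2a, the topoisomerase of dividing cells, stood at 7.85 and 8.81 at 1 week and 6.64 and 6.37 at 6 weeks (change -1.82 ± 0.24, adjusted p = 0.0391). The mitotic genes Knl1 (6.15 and 6.96 at 1 week), Ncapg (6.11 and 6.93), Ckap2 (6.71 and 6.88) and Ccnb2 (6.78 and 7.32) were lower too. At 6 weeks Knl1, Ncapg and Ckap2 lay below background and Ccnb2 near it (5.94 and 5.77). The imprinted gene Mest (-1.44 ± 0.19) and the calsequestrin of fast muscle, Casq1 (8.21 and 8.72 at 1 week, 6.99 and 7.03 at 6 weeks), were also lower at 6 weeks. Among the genes that were higher, Mmrn1, a matrix gene of endothelium and platelets, stood at 4.04 and 3.88 on the 1 week arrays, below background, and at 7.41 and 7.90 on the 6 week arrays, near its sham levels of 7.40 and 7.28. On the 10 arrays other than those of 1 week it lay between 7.08 and 7.96, so the 1 week arrays stood apart rather than those of 6 weeks. Cpxm2 (1.69 ± 0.20), Abra, an activator of serum response factor signalling in striated muscle (8.15 and 8.51 at 1 week, 9.32 and 9.75 at 6 weeks), and Golga4 (0.62 ± 0.09) were higher. In Cpxm2 and Abra the 1 week levels overlapped or lay below those of sham (7.61 and 8.14 and 8.32 and 8.51), and both genes rose against sham at 6 weeks (adjusted p = 0.0103 and 0.0101). The count between 6 weeks and 1 week ran from 1 to 488 when arrays were left out in turn. It was 1 without PAC 6 week array 2, 37 without PAC 6 week array 1, 488 without PAC 1 week array 1 and 14 without PAC 1 week array 2. It was 3 without either sham right ventricle array, 4 without either PAC 3 week array, and 2 without any of the 4 left ventricle arrays.

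The list medians at the 3 times, each against the same 2 sham arrays, ordered differently by list. Cell cycle genes had medians of 0.65 at 1 week, 0.30 at 3 weeks and 0.15 at 6 weeks. At 6 weeks 6% of the cell cycle list passed, against 9.25% of all genes. Of its 50 genes 2 rose, the G1 cyclins Ccnd1 (0.57 ± 0.10) and Ccnd2 (0.65 ± 0.12), and 1 fell, Cenpf (7.66 and 7.55 in sham, 6.88 and 6.34 in PAC). Of these 3 genes 3, 0, 0 and 0 passed without PAC array 1, PAC array 2, sham array 1 and sham array 2. Macrophage and myeloid markers had 0.59, 0.25 and 0.03. The small leucine-rich proteoglycan list had 0.29, 0.66 and 0.81, and the load genes 0.69, 0.72 and 0.84. The matricellular and elastic fibre list had 0.80, 0.92 and 0.76, and the fibrillar collagen list 0.68, 0.68 and 0.62. Without PAC 6 week array 1 the 6 week medians of these last lists were 0.96 and 0.84, above those at 3 weeks. All genes had -0.05 at each time. Without PAC 6 week array 2 the 6 week medians of the proteoglycan and load lists were 0.45 and 0.69, below those at 3 weeks. No test of these medians was made, and they share the sham arrays.

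**Figure D5:**
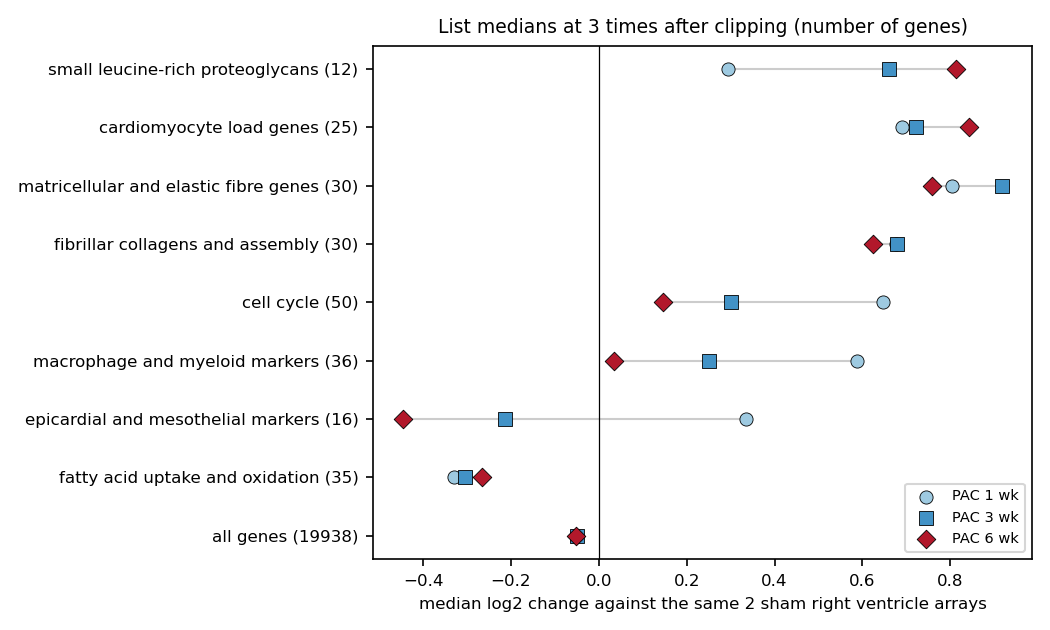
Median log2 change (horizontal axis) of 8 gene lists and of all genes at 1 week (circle), 3 weeks (square) and 6 weeks (diamond) after clipping, each against the same 2 sham right ventricle arrays; the 1 week circle of the fibrillar collagens lies behind the square. The cell cycle, macrophage and epicardial medians are lowest at 6 weeks. So are the matricellular and fibrillar collagen medians, though not without PAC 6 week array 1. The proteoglycan and load medians are highest then, though not without PAC 6 week array 2.

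In the left ventricle under a clipped aorta, on arrays of which none belongs to the right ventricle groups, 0 of 19938 genes passed at 3 weeks (0%) by limma, with 963 at an unadjusted p under 0.05. The corresponding number of unadjusted p-values in the 6 week right ventricle was 6037. Side by side, the change of Nppa was 0.33 ± 0.38 in the left ventricle and 2.47 ± 0.38 in the right, that of Myh7 0.76 ± 0.42 and 2.70 ± 0.42, and that of Acta1 1.36 ± 0.31 and 2.26 ± 0.31. For the matrix genes Cilp it was 1.33 ± 0.57 and 3.75 ± 0.57, and for Comp 0.16 ± 0.40 and 2.51 ± 0.40. The 2 obstructions differ in time after operation and in chamber, and the difference between them was not tested here.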

How the data were processed

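The authors deposited log2 expression values per probe set for 12 arrays, normalised with RMA in Affymetrix Power Tools per the submitters' processing notes. The software version, the library files and the build of the genome were not given in the sources used here. RMA pulls array distributions together, so a change shared by most genes cannot be seen. Of 35556 probe sets 21789 were listed with 1 gene, 1621 with several and 12146 with none. Symbols came from the platform annotation (91 without a reference symbol), and 19938 genes remained after taking, for the 999 genes with several probe sets, the one with the highest mean. Groups were compared with limma 3.58.1 in R 4.3.3 in 1 model of 6 group means (6 residual degrees of freedom), with Benjamini-Hochberg adjustment. Arrays carry no counts, and their number limits the precision. The script was tested on simulated data.

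Named genes were, among those that passed, did not overlap and reached background in their higher group, the 15 largest increases and 15 largest decreases, the 8 largest each way against PAC 3 and 1 weeks (filled to 5 with genes that did not pass), up to 6 genes of each of 39 lists, those with the widest gap between the PAC arrays, and Nppa, Nppb, Myh6, Myh7, Acta1, Ankrd1, Postn, Cilp, Col1a1, Col3a1, Hand1, Hand2 and Tbx5. Predicted gene models were left out. Lists and genes were chosen with earlier results of these data known, and 1012 of 1078 list genes were measured. Alternatives were cyclic loess, the mean over probe sets, a filter on low values, a trended and robust prior, a fit to the arrays compared, a replicate block and leaving out each array in turn.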

Additional observations from a re-analysis of the deposited data

Results flagged for a closer look

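Direct tests between the 6 week arrays and the earlier clipped arrays, with the spread estimated over all 12 arrays, drew attention to 22 genes because their level differed between the times. Against 3 weeks the clock genes Dbp (1.44) and Nr1d1 (1.23) were higher and Fam124b (-0.95) was lower, each on the log2 scale with an adjusted p of 0.0167 by limma. Against 1 week the matrix gene Mmrn1 (3.70), the carboxypeptidase-like Cpxm2 (1.69), the melanocyte enzyme Dct (1.33), the muscle actin-binding activator Abra (1.20), Prune2 (0.85), the synuclein Sncg (0.64) and the Golgi protein Golga4 (0.62) were higher. Lower at 6 weeks than at 1 week were the stem cell factor receptor Kit (-0.73), Tmem255a (-0.78), the matrix peroxidase Pxdn (-0.85), Epn3 (-0.95) and the histone gene H2ac4 (-1.04). Lower too were the mitotic genes Ckap2 (-1.14), Ccnb2 (-1.20), Ncapg (-1.51), Knl1 (-1.51) and Top2a (-1.82), the imprinted gene Mest (-1.44) and the calsequestrin Casq1 (-1.45). The 1 week level of Mmrn1, the 6 week levels of Tmem255a, Ckap2, Ncapg and Knl1 and both levels of H2ac4 lay below background, and the 1 week level of Dct and the 6 week level of Ccnb2 near it, so these differences are not exact sizes. The adjusted p-values of the genes that differed from 1 week ran from 0.000263 to 0.046.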

How the results depend on the processing

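Against sham, the count of 1844 was 1253 after cyclic loess scaling (1104 of them among the 1844, with the median of all genes at -0.01 instead of -0.05), 1843 with the mean over probe sets and 2337 with a trended and robust prior. It was 1020 in a fit to the compared arrays alone (847 shared) and 2437 of 9969 genes without genes below the median level, of which 71.6% were higher against 59.7% of the 1844. Leaving out 1 array at a time gave 3 to 2656. Between 6 and 3 weeks the count of 4 was 0 in a fit to the compared arrays, 3 to 6 under the other settings, and 0 to 11 with 1 array left out. Between 6 weeks and 1 week the count of 19 was 32 without low genes, 83 with the trended prior, 1 with the compared arrays alone and 1 to 488 with 1 array left out. For the clipped aorta it stayed 0, and 0 to 1 with 1 array left out. With a replicate block the counts were 1941 (1685 shared), 5 (4 shared), 11 (9 shared with the 19) and 0. Same-numbered arrays of different groups deviated together with correlations from -0.241 to 0.37. Between clipped groups these were 0.263 (1 and 3 weeks), 0.37 (1 and 6 weeks) and 0.261 (3 and 6 weeks). Over all groups they had no common sign, so the numbers were not taken to pair arrays, although those between clipped groups were all positive. Of 187 genes of the naming rule and its additions that passed against sham, none changed sign under any setting, 149 passed after loess scaling and 146 in the fit to the compared arrays, while 50 passed without sham array 1, 30 without sham array 2, 150 without PAC 6 week array 1 and 3 without array 2. Leaving out 1 array could not turn a sign, because both PAC arrays lay on one side of both sham arrays in these genes. Of the other settings, only loess scaling and the mean over probe sets altered the changes. Without PAC 6 week array 2 the change of 169 of the 187 stayed within 1.5-fold of the value given. The cause of these shifts was not tested. List medians that changed sign under some setting were those of the adipocyte, calcium, chemokine, platelet, neural, renin-angiotensin and Wnt lists. With 12 arrays and no counts, precision is set by the number of arrays, and levels near 5.72 lie at background.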

Other observations

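Single genes of several groups not described above passed. Among growth factor and insulin-like growth factor genes 2 of 36 rose and 3 fell at 6 weeks against sham by limma. The shares that passed were 13.9% of this list and 9.09% of the complement list, against 9.25% of all genes, and the latter is near that level. The binding protein Igfbp7 stood at 10.47 and 10.51 in sham and 11.19 and 11.73 in PAC and rose by 0.97 ± 0.22 (adjusted p = 0.028), and Igfbp6 rose by 0.80 ± 0.21. The neuregulin receptor gene Erbb4 fell by 0.49 ± 0.09, the vascular growth factor Vegfb by 0.48 ± 0.11 and Pdgfa by 0.33 ± 0.08. Of 22 complement genes the membrane regulator Cd55 rose (6.47 and 6.25 in sham, 6.94 and 7.38 in PAC) and Cd59a fell by 0.52 ± 0.11. Prnp, the prion protein gene, stood at 9.96 and 9.98 in sham and 10.76 and 11.03 in PAC and rose by 0.92 ± 0.12 (adjusted p = 0.00708). Of 14 adipocyte markers 0 passed by limma, with 4 at an unadjusted p under 0.05, and of 9 erythroid and platelet markers 0 passed, with 2 at that level. Of all 19938 genes 6037 were at that level. Without PAC array 2 none of the genes in this paragraph passed, and without PAC array 1 4 of the 5 growth factor genes and 2 of the 2 complement genes passed.

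Further genes chosen after their values were seen add to this. Kctd12b, a relative of the GABA receptor auxiliary subunits, stood at 7.54 and 7.5 in sham and 8.41 and 8.56 in PAC (change 0.96 ± 0.08, adjusted p = 0.0034). Kif5b, a motor protein of microtubules, stood at 9.75 and 9.71 in sham and 10.78 and 11.01 in PAC (change 1.17 ± 0.11, adjusted p = 0.00356). With Dbp they were the genes that passed without PAC array 2, each with an adjusted p of 0.04.

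Some genes differed more between the 2 PAC arrays of 6 weeks than most. The platelet chemokine Ppbp stood at 7.27 and 9.53, the macrophage product Retnla at 6.42 and 4.75, the endothelial tip cell gene Esm1 at 6.19 and 7.77 and the proton pump subunit Atp6v0a4 at 6.4 and 7.95. Among probe sets outside the gene analysis, 102 of 1621 listed with several genes passed against sham, 71 of them higher. Of the 12146 without a listed gene 0 passed by limma, with 2043 at an unadjusted p under 0.05.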
